A study of Mus musculus with 6 samples.

Results

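The 10 genes followed here belong to the AP-1 and immediate early response and were measured in oesophageal squamous cell carcinomas of mice. They are Fos, Fosb, Fosl1, Fosl2, Jun, Junb, Jund, Egr1, Atf3 and Ier3. They were taken by name, with reads summed per gene symbol, and make up 10 of the 41253 symbols in the deposited data. All 10 passed the filter on low counts that left 17663 genes for testing. AP-1 is a DNA-binding dimer in which a Fos-type protein pairs with a Jun-type protein, or Jun-type proteins pair with each other. Immediate early genes are transcribed quickly after growth factors, cytokines or stress reach a cell, without the need for new protein, and their mRNAs are short-lived. In squamous epithelia AP-1 members are known to act in proliferation, wound response and terminal differentiation.

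The tumours came from C57BL/6 mice labelled Ptpro-/- (Ptpro-KO, 3 libraries) and from C57BL/6 mice labelled wild type (WT, 3 libraries). Every mouse of both groups had been given the carcinogen 4NQO to drink, at a labelled 100 mg/mL, starting at week 6 and lasting 16 weeks. Animals were killed 12 weeks later, at 34 weeks of age by the series' design text, or earlier on marked weight loss, although an age tag on each sample reads week 6. The labels do not say which part of Ptpro, a receptor-type tyrosine phosphatase gene, the mutant allele lacks.

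Libraries held 25745240 to 39827467 reads on annotated transcripts, the fewest in WT replicate 2. Ptpro itself went against the labels, at 30.3 to 50.6 CPM (counts scaled to library size) under the Ptpro-KO label and 0.359 to 5.05 CPM under the WT label, a log2 fold change of 3.97 with an edgeR adjusted p of 0.0617. All directions here are therefore between libraries as labelled. Squamous markers were present in every library: the 13 listed genes, keratins 5 and 14 and p63 (Trp63) among them, summed to 16212 to 23030 CPM under the Ptpro-KO label and 45995 to 54717 CPM under the WT label. Markers of simple and gastric epithelium (13 genes) summed to 1112, 2266 and 15148 CPM in Ptpro-KO replicates 1 to 3 and 38.6 to 88.1 CPM under the WT label. The gastric gene Pgc had 3.49, 1.38 and 6209 CPM in Ptpro-KO replicates 1 to 3 and 0 reads under the WT label. Fibroblast markers (10 genes) summed to 3341 to 5656 against 492 to 2233 CPM, and macrophage markers (9 of 10 listed genes were in the files) to 663 to 1279 against 102 to 398 CPM. Skeletal muscle markers (10 genes) ran from 183 to 36778 CPM under the Ptpro-KO label and from 63.9 to 37269 CPM under the WT label, lowest in Ptpro-KO replicate 3 and WT replicate 2. Thyroid markers (5 genes) summed to 4.68, 782 and 26.6 CPM in Ptpro-KO replicates 1 to 3, against 1.39 to 1.89 CPM under the WT label. In Ptpro-KO replicate 2 Tg alone had 774 CPM, with 2.60 and 1.63 CPM in replicates 1 and 3. T cell markers (8 genes) summed to 9.20 to 18.9 against 7.89 to 17.98 CPM, and endothelial markers (7 genes) to 171 to 278.8 against 166 to 259 CPM. Neutrophil markers (8 genes) summed to 264 to 1162 against 1448 to 3253 CPM, most of it S100a8 and S100a9, which keratinocytes are known to express too; the other 6 genes, a split made after the values were seen, summed to 49.3 to 102 against 30.5 to 42.2 CPM. The 10 heat shock genes listed as a sign of tissue stress summed to 3036 to 3373 against 4148 to 4832 CPM. By edgeR 0 of these 10 were called higher and 4 lower, beside 1.81% and 2.29% of all tested genes. The part of the heat shock genes in the results was not tested. In bulk tissue, fewer cells of a type and less RNA per cell cannot be told apart.

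Sequence just upstream of 3 of these genes is shown because promoters of immediate early genes are the point at which CREB and ATF proteins, serum response factor and AP-1 itself are known to act on them. The RefSeq promoter table (GRCm38.p6) had entries for 8 of the 10 genes; Fosl1 and Egr1 had none. The 250 bases before the annotated start are given 5′ to 3′ on the gene's own strand, with motif matches in capitals. For Fos this is chr12:85473640-85473889 (plus strand), for Jun chr4:95052223-95052472 (minus strand) and for Junb chr8:84978749-84978998 (minus strand), none of which overlapped an annotated exon.

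Fos: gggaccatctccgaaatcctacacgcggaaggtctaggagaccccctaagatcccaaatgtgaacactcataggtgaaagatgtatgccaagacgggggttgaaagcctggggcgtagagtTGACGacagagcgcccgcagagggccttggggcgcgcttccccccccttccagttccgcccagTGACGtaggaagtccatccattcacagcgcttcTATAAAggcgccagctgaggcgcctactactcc

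Jun: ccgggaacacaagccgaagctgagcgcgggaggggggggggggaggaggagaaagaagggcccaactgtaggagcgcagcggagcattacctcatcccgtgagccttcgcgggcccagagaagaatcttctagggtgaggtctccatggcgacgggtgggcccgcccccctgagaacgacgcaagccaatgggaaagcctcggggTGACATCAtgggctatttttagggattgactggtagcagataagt

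Junb: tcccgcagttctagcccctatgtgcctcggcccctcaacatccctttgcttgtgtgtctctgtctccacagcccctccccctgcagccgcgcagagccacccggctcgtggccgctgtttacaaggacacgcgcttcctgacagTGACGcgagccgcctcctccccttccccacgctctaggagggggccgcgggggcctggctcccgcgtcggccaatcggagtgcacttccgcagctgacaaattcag

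The capitals mark TGACG, the first part of the cAMP response element that CREB and ATF proteins are known to bind, at bases -129 to -125 and -66 to -62 from the start of Fos and -106 to -102 from that of Junb. They also mark TATAAA at -33 to -28 of Fos and TGACATCA at -45 to -38 of Jun, a match to TGACNTCA. Both strands were searched. TGACG was found in 4 of the 8 promoters, those of Fos, Fosb, Junb and Atf3, and in 19.8% of the 27025 genes with a promoter entry. TGACNTCA was found in 1 of the 8 and in 8.55% of all, and TATAAA in 1 of the 8 and 14.3% of all. The Egr-type motif GCGGGGGCG was found in Fosl2 and Fosb, and in 2.93% of all. The RefSeq starts used for these windows were not always those of GENCODE. Windows of Atf3, Fosl2, Fosb and Ier3 overlapped an exon of their own gene. That of Fosl2 (chr5:32136222-32136471, plus strand) lay wholly past the GENCODE start at 32135801, so its match is inside the gene. That of Jund ended at 70697738, before the GENCODE start at 70698949. The full element TGACGTCA (1.77% of all, a subset of TGACNTCA), the AP-1 site TGANTCA (7.82%) and the CArG box bound by serum response factor (1.62%) had 0 matches in these 8 windows. Bases farther upstream were not searched, and Fosl1 and Egr1 had no window. A count of 0 matches here therefore does not show that these genes lack such sites. The TGACG and TGACNTCA searches were chosen after the sequences had been seen.

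Between the labels, 0 of the 10 genes passed the edgeR quasi-likelihood test at an adjusted p under 0.05, where 4.10% of all tested genes did (1.81% higher and 2.29% lower under the Ptpro-KO label). At an unadjusted p under 0.05 there were 2, Fosl1 and Fosl2, against 25.0% of all genes in either direction and 11.3% lower. DESeq2 called 1, Fosl2, and limma-voom 0. DESeq2 called 16.6% of the genes it tested, 9.12% higher and 7.44% lower. All 10 fold changes were below 0, as were 46.7% of those of all genes, and the median log2 fold change of the 10 was -0.57 beside 0.03 over all genes. Without WT replicate 2 that median was -0.15 beside 0.03, with 2 of the 10 above 0. Without WT replicate 3 it was -0.81 beside 0.06. The 3 libraries of one label lay wholly below those of the other for 1 of the 10, Fosl2, beside 15.7% of all genes in that direction, 16.8% in the other and 32.5% in either. Among the libraries labelled WT the highest CPM was 4.85 times the lowest for Fos, 4.47 times for Egr1 and 4.30 times for Atf3, but 1.204 times for Fosl2 and 1.29 times for Jund.

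**Figure D1:**
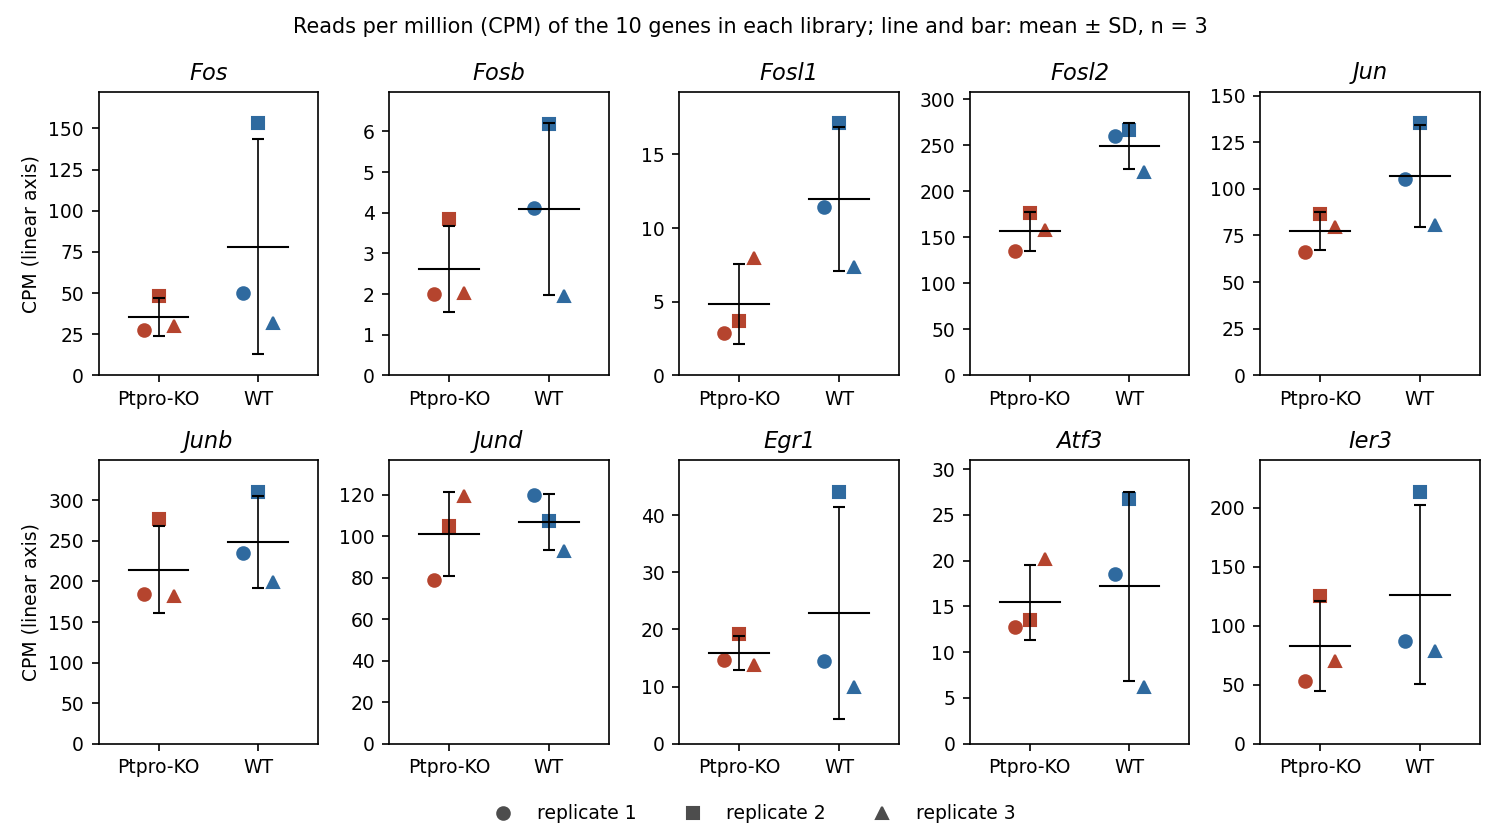
CPM of each of the 10 genes (linear axes from 0) in the 3 libraries labelled Ptpro-KO (left, red) and the 3 labelled WT (right, blue); marker shapes give the replicate, lines and bars the mean ± SD. Fosl2 is the gene whose groups are apart, at 135 to 177 CPM against 221 to 266 CPM, and the square of WT replicate 2 is the highest point in every panel except Jund.

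Fosl2 (Fra-2), a Fos-family protein without the strong activation domain of Fos, was the gene with the clearest separation. It had 135, 177 and 158 CPM under the Ptpro-KO label, against 260.2, 266 and 221 CPM under the WT label. Each Ptpro-KO value lay below each WT value. The means were 157 ± 21.2 and 249 ± 24.5 CPM (SD, n = 3 each). The log2 fold change of -0.67 (SE 0.15, 95% interval -1.03 to -0.31) did not pass edgeR over all genes (adjusted p = 0.0623). DESeq2 gave an adjusted p of 0.000937, and the 18 alternatives together ranged from 0.000937 to 0.265, with log2 fold changes from -0.78 to -0.57. Permuting the labels over log2 CPM (exact, two-sided) gave p = 0.1, and no smaller p can come from 3 against 3. Squamous markers moved with Fosl2, at a median log2 fold change of -1.21 with all 13 below 0, and their part in its difference was not tested. The gene lies on chromosome 5 from 32135801 to 32157842 (GRCm38, plus strand, 4 exons in the transcript that holds its reads).

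Fosl1 (Fra-1), a Fos-family protein known for its high levels in invasive carcinoma cells, had the fold change farthest from 0 among the 10 genes. Its levels were 2.85, 3.71 and 7.96 CPM under the Ptpro-KO label, against 11.5, 17.1 and 7.37 CPM under the WT label. Ptpro-KO replicate 3 overlapped WT replicate 3, while the other Ptpro-KO libraries were below all WT ones. The log2 fold change was -1.31 (SE 0.50, 95% interval -2.52 to -0.09), with an edgeR adjusted p of 0.174 (0.0524 to 0.460 over the alternatives) and an exact permutation p of 0.2. The reads behind these values numbered 103, 158 and 302 under the Ptpro-KO label and 395, 429 and 207 under the WT label. With 1 library left out, the log2 fold change ran from -1.87 (edgeR adjusted p = 0.0888) without Ptpro-KO replicate 3, the library with the highest gastric marker sum, to -0.97 (edgeR adjusted p = 0.385) without WT replicate 2.

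Fos, the proto-oncogene that gives the family its name, differed between the labels mainly through a single library. It had 27.4, 48.5 and 30.0 CPM under the Ptpro-KO label, against 50.0, 153 and 31.5 CPM under the WT label. WT replicate 2 held 4.85 times as much as WT replicate 3, while the Ptpro-KO libraries differed by at most 1.77-fold. The log2 fold change was -1.15 (SE 0.61, 95% interval -2.65 to 0.35; edgeR adjusted p = 0.310), and without WT replicate 2 it was -0.22. Of the Fos reads, 97.6% were listed under 1 of its 4 transcripts. Fosb, a close relative also known from the immediate early response, was the least abundant of the 10 genes, at 1.99, 3.85 and 2.03 CPM under the Ptpro-KO label and 4.12, 6.18 and 1.96 CPM under the WT label. WT replicate 3 was below all Ptpro-KO libraries and the other WT replicates were above them. Its log2 fold change of -0.64 (95% interval -1.85 to 0.58) became -0.22 without WT replicate 2.

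The Jun genes varied less between libraries than Fos and Fosl1 did. Jun, the partner of Fos in classical AP-1, had 66.3, 86.4 and 79.8 CPM under the Ptpro-KO label, against 105, 135 and 80.7 CPM under the WT label. Ptpro-KO replicate 2 alone lay above the lowest WT library, and the log2 fold change was -0.47 (SE 0.21, 95% interval -0.98 to 0.05; edgeR adjusted p = 0.244). Without WT replicate 2 it was -0.27. Junb, often a weaker activator than Jun and abundant in keratinocytes, had 185, 277 and 182 CPM against 235, 311 and 199 CPM, so the groups overlapped. Its log2 fold change was -0.21 (95% interval -0.80 to 0.38), or -0.02 without WT replicate 2. Jund, known for steadier expression than its relatives, had 79.0, 105 and 119 CPM under the Ptpro-KO label and 119.8, 107 and 93.0 CPM under the WT label. Its log2 fold change of -0.08 had the narrowest 95% interval after Fosl2, -0.53 to 0.37, which is a ratio of 0.694 to 1.29. All 3 Jun genes had a single exon in the transcript that held their reads.

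Egr1, a zinc finger factor and a classical target of ERK signalling, had 14.7, 19.3 and 13.7 CPM under the Ptpro-KO label, against 14.6, 44.1 and 9.86 CPM under the WT label. WT replicate 2 was the highest of all libraries and WT replicate 3 the lowest, with the Ptpro-KO libraries between them. The log2 fold change was -0.52 (SE 0.57, 95% interval -1.90 to 0.86; edgeR adjusted p = 0.615), and it turned to 0.37 without WT replicate 2. Atf3, a stress-induced repressor of the same leucine zipper class as Fos and Jun, likewise had its highest and lowest values under the WT label, at 12.7, 13.5 and 20.2 CPM under the Ptpro-KO label and 18.6, 26.8 and 6.23 CPM under the WT label. Its log2 fold change of -0.15 (95% interval -1.43 to 1.12) turned to 0.31 without WT replicate 2. Ier3, an early response gene that affects cell survival, had 52.9, 126 and 70.3 CPM against 87.5, 214 and 78.4 CPM. Both replicates numbered 2 stood above the others of their label. The log2 fold change was -0.61 (95% interval -1.83 to 0.61), and -0.01 without WT replicate 2.

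**Figure D2:**
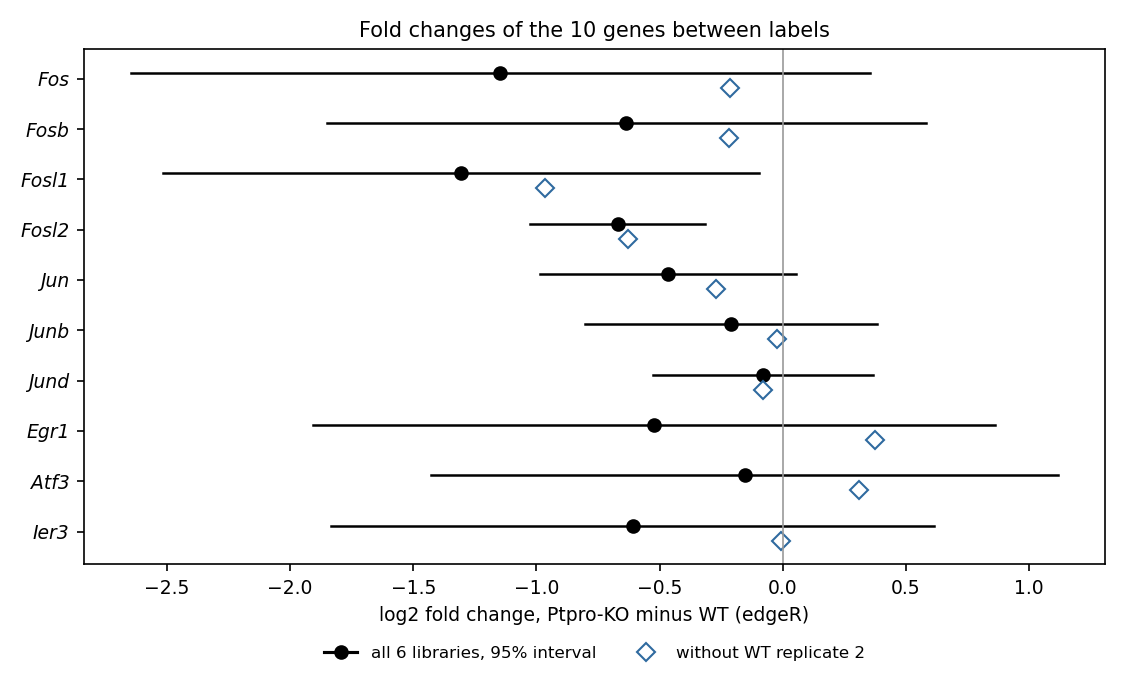
Log2 fold change (Ptpro-KO minus WT, edgeR) of the 10 genes; filled circles with lines are the fit of all 6 libraries with its 95% interval, open diamonds the fit without WT replicate 2. The intervals of Fosl1 and Fosl2 leave out 0, the other 8 include it, and the diamonds of Egr1 and Atf3 lie above 0, at 0.37 and 0.31.

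WT replicate 2 was the highest of the 6 libraries for 9 of the 10 genes, where it was highest for 18.1% of all tested genes. The exception was Jund, highest in WT replicate 1 (12.2% of all genes). Ptpro-KO replicate 1 was the lowest library for 6 of the 10 (16.8% of all genes). Relative to the median of the other 5 libraries, WT replicate 2 held 4.85 times the Fos CPM, 3.04 times the Fosb, 3.03 times the Egr1 and 2.73 times the Ier3, but 1.67 times the Jun and 1.03 times the Jund. The same library had the lowest fibroblast, macrophage and skeletal muscle sums, at 492, 102 and 63.9 CPM, and its squamous sum, 45995 CPM, was the lowest of those labelled WT; their part in its AP-1 values was not tested. Ptpro-KO replicate 2 was the highest library of its own label for 7 of the 10 genes. Reads of Xist and the Y chromosome showed both libraries to be from male mice, as was WT replicate 3, which was the lowest of all for 3 genes, Fosb, Egr1 and Atf3 (12.2% of all genes). With a term for sex Fosl2 had a log2 fold change of -0.65 and an edgeR adjusted p of 0.111.

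Library codes in the deposited tables begin with LB for replicate 1 of each label and with B for the others; the sources used here do not explain the letters. Between the LB-coded libraries (Ptpro-KO replicate 1 minus WT replicate 1) the difference in log2 CPM was -0.95 for Fosl2, -1.98 for Fosl1 and -0.87 for Fos. Between the means of the B-coded ones it was -0.54 for Fosl2, -1.04 for Fosl1 and -0.86 for Fos. For Jund it was -0.60 and 0.16 and for Atf3 -0.54 and 0.35, so these genes differed in sign between the codes. For Egr1 it was 0.01, near 0, and -0.36. Each LB value compares 1 library with 1 other.

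Levels per transcript length (the deposited RPKM, reads scaled to length and library size) allow the family members to be set beside each other. For Jund the listed length, 2878 bases, is longer than its 1 exon in GENCODE, from 70698949 to 70700616. A shorter length would raise its RPKM, so its place in the order, the Jun family shares and sums and the Jun to Fos ratio depend on that length. Among Jun genes Junb was the highest in every library, at 102 to 161 RPKM under the Ptpro-KO label and 103 to 165 RPKM under the WT label. It made up 65.9% ± 5.43 and 65.4% ± 2.42 of the family's RPKM (SD, n = 3 each). Among Fos genes Fosl2 was the highest in 5 of the 6 libraries, with 56.6% ± 3.44 under the Ptpro-KO label and 52.4% ± 16.4 under the WT label. In WT replicate 2 Fos was higher instead, with 57.4% of the family's RPKM against 33.9% for Fosl2. Fosl1 and Fosb followed in that order in every library, with Fosb at 0.737 ± 0.313 and 1.04 ± 0.554 RPKM (SD, n = 3 each). The Fos genes together summed to 39.2, 61.2 and 50.0 RPKM under the Ptpro-KO label, against 70.2, 131 and 55.2 RPKM under the WT label. The Jun genes summed to 151, 229 and 175 against 186, 242 and 159 RPKM. The ratio of summed Jun to summed Fos RPKM was 3.85, 3.74 and 3.51 under the Ptpro-KO label and 2.64, 1.86 and 2.87 under the WT label, so the groups did not overlap in this ratio; it was computed after the values had been seen and was not tested.

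**Figure D3:**
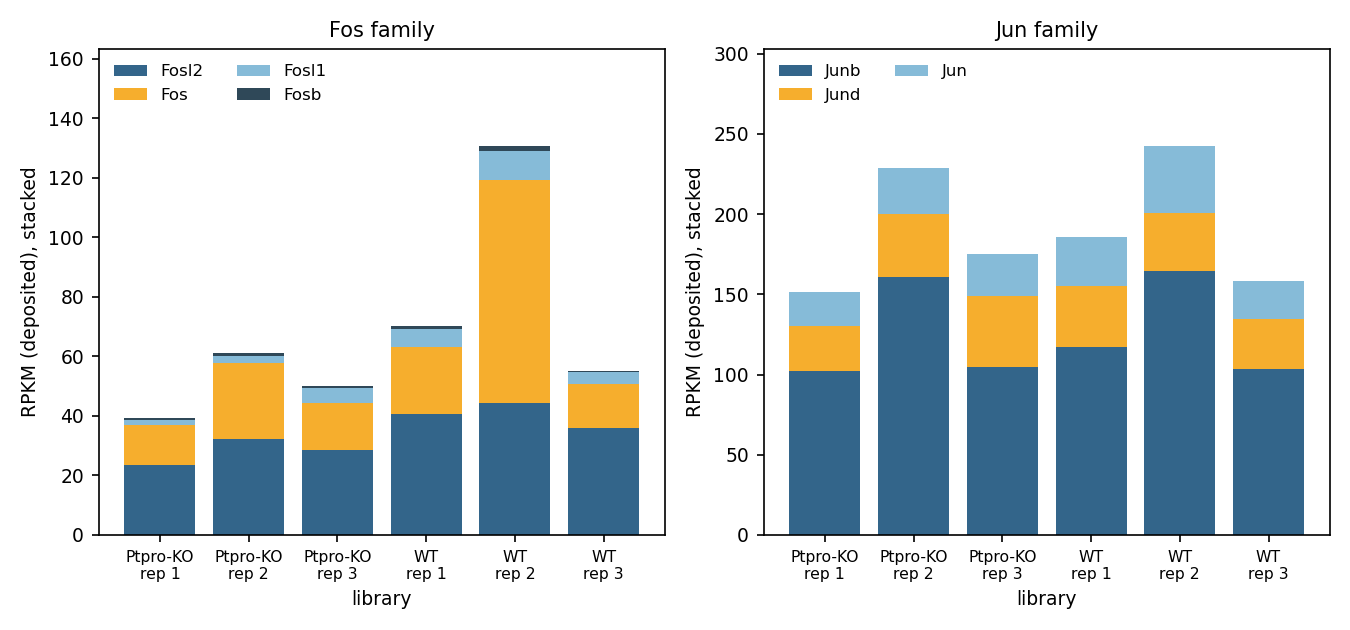
Deposited RPKM of the Fos genes (left) and Jun genes (right), stacked from 0 in each library, with the libraries labelled Ptpro-KO before those labelled WT. The Fos segment of WT replicate 2, 74.9 RPKM, is larger than its Fosl2 segment of 44.3 RPKM, the reverse of the other 5 libraries.

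Ordered by RPKM under the Ptpro-KO label, the levels ran from Junb (123 ± 33.1) and Ier3 (77.4 ± 37.0) through Jund (36.9 ± 8.16), Fosl2 (28.1 ± 4.50), Jun (25.5 ± 4.03) and Fos (18.3 ± 6.30) to Atf3 (8.18 ± 2.27), Egr1 (3.73 ± 0.761), Fosl1 (2.99 ± 1.72) and Fosb (0.737 ± 0.313; SD, n = 3 each). In the libraries labelled WT Junb stood at 128 ± 32.1, Ier3 at 107 ± 66.8, Fosl2 at 40.4 ± 4.13, Fos at 37.2 ± 32.8, Jund at 35.2 ± 3.81, Jun at 31.9 ± 8.67, Atf3 at 8.25 ± 5.09, Fosl1 at 6.68 ± 2.86, Egr1 at 4.89 ± 4.09 and Fosb at 1.04 ± 0.554 RPKM. In this WT order all neighbours except Jun and Atf3 differed by less than the larger of their SDs. In the Ptpro-KO order this held for Fosl2 and Jun and for Egr1 and Fosl1.

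The genes whose profiles over the 6 libraries lay nearest to each member were found by the root mean square difference of mean-centred log2 CPM. For Fos they included Arc, an immediate early gene best known from neurons and itself on the list of other immediate early genes (difference 0.26 log2 units), and Nfkbia, the inhibitor of NF-kB (0.30). For Egr1 they were the early nuclear receptor gene Nr4a1 (0.30), the cytokine gene Clcf1 (0.32) and Cbr2 (0.33). Only genes with a mean log2 CPM of at least 3 were ranked as neighbours, so Fosb (1.63) and Fosl1 (2.83) could not be named as near another member. Among the ranked genes the nearest member to Fos was Ier3 (0.31), at rank 4. The nearest to Egr1 was Fos, at rank 5, to Fosb Ier3, at rank 6, and to Ier3 Fos, at rank 13. The unranked Fosb was nearer to Ier3 (0.297) than Fos was (0.314). For the other genes the nearest ranked member stood farther down the ranking. It was at rank 75 for Atf3, 97 for Jun, 210 for Fosl2, 212 for Junb, 447 for Fosl1 and 4163 for Jund. A rank depends on how many genes lie nearer and does not measure the difference itself. By difference, Jun and Fosl2 (0.182), Junb and Jun (0.187) and Jund and Jun (0.269) were nearer than Fos and Ier3 (0.314). Atf3 and Egr1 (0.49) and Fosl1 and Fosl2 (0.60) were farther apart. Fosl2 lay closest to Ssx2ip (0.036), the cell cycle inhibitor gene Cdkn1a (0.041) and Jmjd6 (0.065), and Fosl1 to Prnd (0.12), the oxidase gene Duox1 (0.21) and Ppif (0.24). For Jun the nearest were Sap30 (0.090), Zfp36l1 (0.099), which encodes an mRNA decay factor, and Nme7 (0.11). Atf3 lay nearest to Phlda1 (0.24), Odc1, the first enzyme of polyamine synthesis (0.32), and Gm15470 (0.34), and Ier3 to Irs2 (0.24), Rac3 (0.26) and Gclc (0.27). Junb had Pigc (0.093), 2810025M15Rik (0.097) and Cdc42ep4 (0.10) as neighbours, Jund had Usp36 (0.050), Gpank1 (0.067) and Sertad1 (0.069), and Fosb had Cbr2 (0.13), Ankk1 (0.23) and Nfkbia (0.28).

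Of 32 other immediate early genes, 31 were tested and 0 passed edgeR over all genes, beside 4.10% of all tested genes. An unadjusted edgeR p under 0.05 was found for 10, beside 25.0% of all. In this list limma-voom called 0 and DESeq2 called 2 higher and 2 lower, beside 9.12% and 7.44% of all genes DESeq2 tested. Fold changes of the 31 were above 0 in 13 and below 0 in 18, with a median of -0.16. WT replicate 2 was the highest library for 15 of the 31. Those called by DESeq2 were named after their values were seen. Dusp1, a phosphatase that turns off MAP kinases, had 63.0, 72.1 and 42.2 CPM under the Ptpro-KO label, against 116, 169 and 97.9 CPM under the WT label (edgeR adjusted p = 0.0847). Klf10, an early gene of TGF-beta signalling, had a log2 fold change of -0.74 (edgeR adjusted p = 0.0604). Both Dusp1 and Klf10 had all Ptpro-KO libraries below all WT ones. In the whole list groups did not overlap for 11 of the 31, 6 higher and 5 lower under the Ptpro-KO label, beside 32.5% of all tested genes. Egr2, a relative of Egr1, went the other way, at 9.74, 2.91 and 4.16 against 2.17, 1.12 and 0.997 CPM (log2 fold change 1.96, edgeR adjusted p = 0.109). Ctgf, a matricellular factor gene, stood at 61.8, 397 and 41.4 against 40.7, 36.8 and 28.0 CPM, its high value in Ptpro-KO replicate 2. Both Egr2 and Ctgf had all Ptpro-KO libraries above all WT ones. The most abundant of the list, Klf6 and Mcl1, averaged 248 ± 37.6 and 265 ± 68.8 CPM under the Ptpro-KO label and 212 ± 41.3 and 183 ± 40.4 CPM under the WT label (SD, n = 3 each), with edgeR adjusted p of 0.520 and 0.259.

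**Figure D4:**
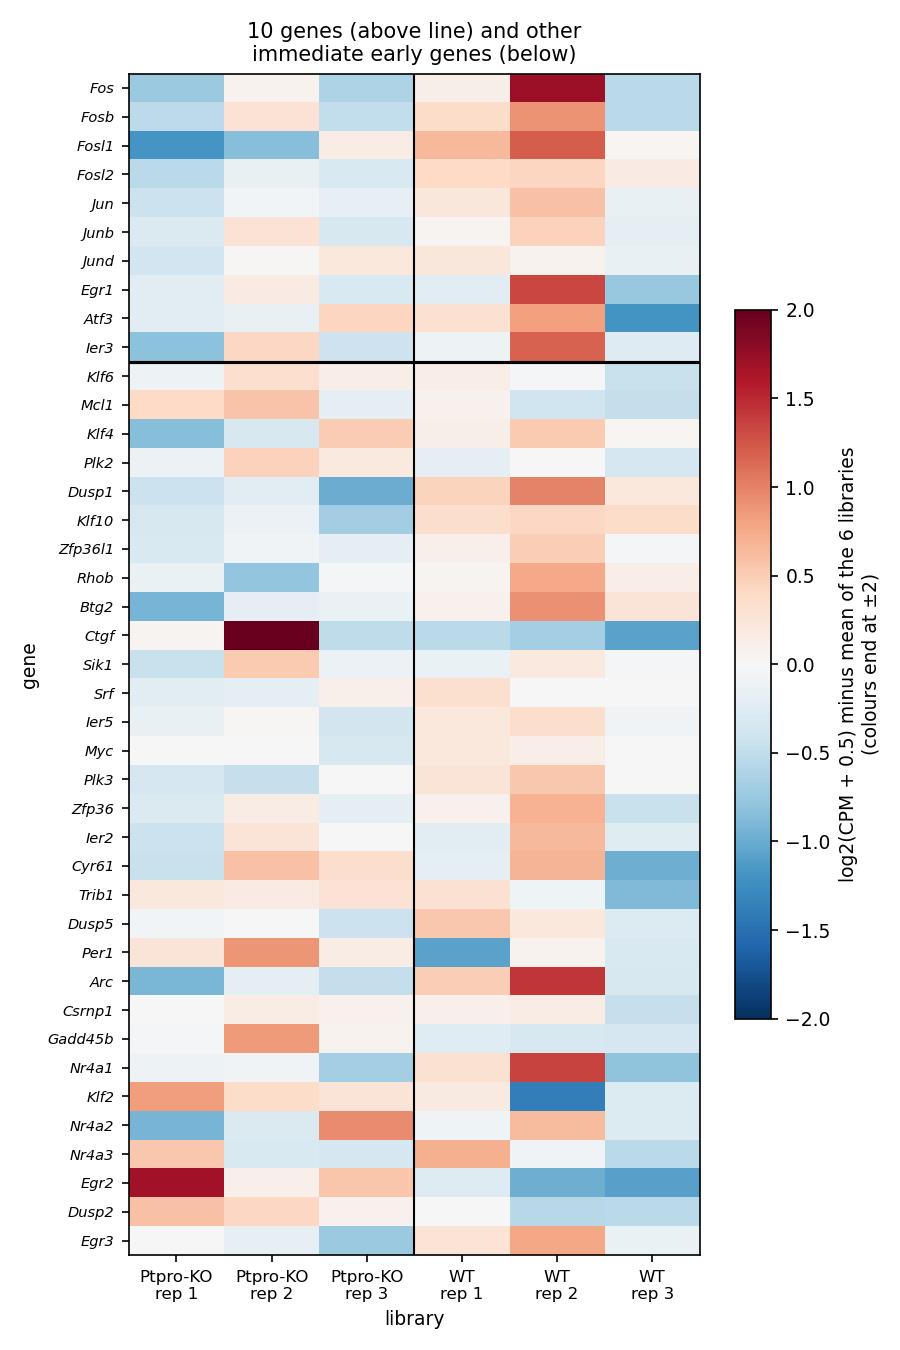
Log2(CPM + 0.5) of the 10 genes (above the black line) and of the 31 tested other immediate early genes (below, by abundance), each minus its mean over the 6 libraries; red is above and blue below that mean. The column of WT replicate 2 is the reddest for 9 of the 10 genes and for 15 of the 31.

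Of 18 AP-1 partners and other leucine zipper genes, 0 passed edgeR, beside 4.10% of all tested genes. An unadjusted edgeR p under 0.05 was found for 7, beside 25.0% of all. In this list limma-voom called 0 and DESeq2 called 0 higher and 2 lower, beside 9.12% and 7.44% of all genes DESeq2 tested. The most abundant, Atf4 and Atf6 of the unfolded protein and integrated stress responses, averaged 137 ± 11.6 and 88.9 ± 1.80 CPM under the Ptpro-KO label and 138 ± 10.01 and 67.5 ± 12.7 CPM under the WT label (SD, n = 3 each). Fold changes of the 18 were above 0 in 12 and below 0 in 6, with a median log2 fold change of 0.21. Groups did not overlap for 7, 5 higher and 2 lower under the Ptpro-KO label, beside 32.5% of all tested genes. Maf, a large leucine zipper factor called by DESeq2, was among those that fell, with a log2 fold change of -0.97 (edgeR adjusted p = 0.0549).

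Of 23 upstream kinases and transcription factors, edgeR called 1 higher and 1 lower, beside 1.81% and 2.29% of all tested genes. DESeq2 called 2 higher and 6 lower, beside 9.12% and 7.44% of all genes it tested. Mapk9, which encodes the Jun kinase JNK2, rose to 53.1, 63.9 and 49.9 CPM under the Ptpro-KO label, against 33.7, 34.0 and 33.9 CPM under the WT label (log2 fold change 0.72, SE 0.12, edgeR adjusted p = 0.0383). Creb1, a factor that binds the cAMP response element, fell to 69.2, 81.6 and 69.9 CPM against 104, 112 and 105 CPM (log2 fold change -0.54, SE 0.10, edgeR adjusted p = 0.0492). Neither gene's groups overlapped, which held for 10 of the 23 genes and for 32.5% of all tested genes. The Mapk9 call was lost in 5 of the 6 fits that left out 1 library and the Creb1 call in all 6 (highest edgeR adjusted p 0.165 and 0.176).

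Textbook targets of AP-1 moved in both directions. Of 29 such genes 28 were tested, with a median log2 fold change of -0.34. By edgeR 2 rose and 4 fell, beside 1.81% and 2.29% of all tested genes. DESeq2 called 8 higher and 6 lower, beside 9.12% and 7.44% of all genes it tested. Spp1, the secreted phosphoprotein osteopontin that macrophages and tumour cells make, rose to 223, 94.4 and 151 CPM under the Ptpro-KO label, against 5.07, 2.67 and 3.17 CPM under the WT label (log2 fold change 5.42, edgeR adjusted p = 0.0125). Ccnd1, the G1 cyclin D1, rose to 323, 325 and 237 CPM, against 103, 135 and 132 CPM (log2 fold change 1.26, edgeR adjusted p = 0.0305). Gja1, the gap junction protein connexin 43, fell to 429, 388 and 422 CPM under the Ptpro-KO label, against 1153, 1178 and 1003 CPM under the WT label (log2 fold change -1.43, edgeR adjusted p = 0.0125). The stress keratin Krt6a and the envelope precursor Sprr1b also fell, with log2 fold changes of -1.41 and -2.20, as did Cdkn1a with -0.69; Krt6a is also among the squamous markers. Macrophage markers moved with Spp1 and squamous markers with the genes that fell, as given above, and their part in these differences was not tested. Krt6a and the Sprr genes have close paralogs, and their counts are uncertain to that extent. Without WT replicate 1 edgeR kept its calls of Spp1 (adjusted p = 0.0449) and Gja1 (0.0464). The calls of Ccnd1 (0.0715), Cdkn1a (0.0943), Krt6a and Sprr1b (both 0.0546) were lost in that fit. Without Ptpro-KO replicate 3 only the Cdkn1a call was lost among these genes (edgeR adjusted p = 0.0769). With WT replicate 2 left out edgeR called 0 genes of any kind, and the same held for WT replicate 3 and for Ptpro-KO replicate 2; 3369, 3078 and 4363 genes then had an unadjusted p under 0.05.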

How the data were processed

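Illumina sequencing was run on total RNA of 6 tumour samples, 3 per labelled genotype. Integrity was checked and DNase used, per the labels' protocols. The sources used here do not say whether libraries kept strand, so reads of an antisense transcript cannot be told apart. Per the submitters' processing notes, Bowtie 0.12.2 and the mm10 build were used. The deposited file of each sample gives whole read counts and RPKM per Ensembl transcript, scaled to length and library. The rule for reads shared by isoforms was not found in these sources. A further table from the authors holds FPKM per gene; 2 of its columns, which name no library, were not used.

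Reads of all transcripts of a symbol were added up (100249 transcripts, 41253 symbols, 0 reads without a symbol). Low genes were removed by filterByExpr (minimum count 10, minimum total 15), TMM factors were applied, and edgeR 4.0.16 (R 4.3.3) gave quasi-likelihood tests, Ptpro-KO minus WT, with Benjamini-Hochberg adjustment over 17663 genes at 0.05. The SE is the log2 fold change over the root of F, and 95% intervals use the test's degrees of freedom. CPM uses TMM library sizes, and log2 CPM has a prior count of 2. Positions come from GENCODE M21 (GRCm38, the assembly of mm10). Libraries of one label were not duplicates, since chi-square per degree of freedom between them was 66.9 to 307. The labels do not say that each library came from a separate animal, although both sexes occur under each label; p-values measure the spread between these libraries. Reads per library behind a member ran from 55 (Fosb) to 11792 (Junb).

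The members and gene lists were chosen with earlier results of these data known. Named were the 10 members, in each list the called genes (at most the 5 with the smallest p, or the 2 most abundant where none was called), and for each member the 3 nearest profiles among genes with a mean log2 CPM of at least 3. Cdkn1a, a target called beyond those 5, Maf, Dusp1, Klf10, Egr2 and Ctgf were named after their values were seen. A few results that these rules would name are not reported here. On simulated counts the test was checked for the same comparison. Alternatives were DESeq2 1.42.0, limma-voom (limma 3.58.1), limma on log2(FPKM + 1) and log2(FPKM + 0.1) of the authors' table, other scalings and filters, a replicate block, a sex term and leaving out each library; leaving out the LB-coded libraries and a term for the code were chosen after seeing the data.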

Additional observations from a re-analysis of the deposited data

How the results depend on the processing

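Across 18 alternatives, 170 of 180 member results kept their direction and their side of the threshold, and 17 alternatives called 0 of the 10 genes. DESeq2 called 1 member lower, Fosl2, and 2 other immediate early genes higher and 2 lower, and the library code term called 1 of the latter list higher. Over all genes, where edgeR called 320 higher and 405 lower, DESeq2 called 1734 and 1415, the replicate block 133 and 104, the sex term 64 and 122, and limma on log2(FPKM + 1) 181 and 261. Without both LB-coded libraries edgeR called 0 and 0, with 2971 genes at an unadjusted p under 0.05. Leaving out 1 library gave 0 to 253 higher and 0 to 243 lower. Directions turned for 3 members. Jund had a log2 fold change of 0.13 without the LB-coded libraries, and -0.22 to 0.037 when 1 library was left out. Egr1 ranged from -0.89 to 0.37 and Atf3 from -0.56 to 0.31 when 1 library was left out, positive without WT replicate 2. Atf3 was also at 0.054 by limma-voom, 0.0066 with the replicate block, 0.0031 by log2(FPKM + 1) and 0.026 by log2(FPKM + 0.1). The cause of these turns was not tested. Same-numbered libraries had correlations of deviations from their group means of 0.54, 0.08 and -0.24 across genes, and not every library correlated best with its own number, so the numbers were not taken as pairs; with the replicate block no member's call changed.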
